A study of Mus musculus with 134 samples.

Results

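Receptors and ligands of the epidermal growth factor (EGF) family were followed across 134 mouse mammary tumors. The 10 genes considered were the receptors Egfr, Erbb3 and Erbb4 and the ligands Areg, Ereg, Btc, Hbegf, Tgfa, Nrg1 and Epgn. They were chosen by name, as the family members other than the receptor Erbb2, and each was read from the probe set that carries its symbol alone, with the highest mean where a gene has several. Of the 10 genes, 9 had such a probe set among the 19938 genes measured, namely 3 receptors and 6 ligands. Areg, which encodes amphiregulin, was not analysed here.

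The tumors came from PyMT-positive N2 females of a backcross to FVB/NJ, in which the wild-derived strain MOLF/EiJ was the donor. MMTV-PyMT males were bred to MOLF/EiJ females, and their PyMT-positive F1 sons to FVB/NJ females, so that every tumor carried the polyoma middle T transgene under the mouse mammary tumor virus promoter and every animal its own share of MOLF genome. The animals were untreated, 1 tumor was profiled per animal on 1 Mouse Gene 1.0 ST array, and tumors were collected when the animals neared a humane endpoint. There was no normal gland, no treated animal and no tumor without the transgene, so all comparisons are among tumors, and ages, genotypes and metastasis were not analysed here.

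EGF family receptors are tyrosine kinases of the epithelial cell surface that signal as pairs once a ligand is bound. In vertebrates, Tgfa, Epgn and amphiregulin bind Egfr, Btc, Hbegf and Ereg bind both Egfr and Erbb4, and the neuregulin Nrg1 binds Erbb3 and Erbb4, while Erbb2 binds no ligand and serves as the partner of the others. Most of the ligands are made as membrane proteins and are released by proteases, and in the mammary gland the family is known for its part in duct growth, in alveolar development and milk production (Erbb4) and in tumors.

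Levels are log2 signals that the authors made with RMA, a method that brings all arrays to a shared distribution and gives each probe set 1 value. Array medians lay between 6.30 and 6.54. The detection floor was 5.72, below which 95% of 1178 olfactory and vomeronasal receptor genes had their mean. Luminal markers were well above it, with means of 10.98 for Cdh1 (E-cadherin) and 11.24 for Epcam, so the samples contained epithelium. Levels of different probe sets have no common scale and were not ranked against each other. The labels number the tumors from 1 to 134 in one series and give each an animal number. The animal numbers mostly rise up to tumor 106 and drop back at tumor 107. From this order the tumors were split here into runs, 107 to 134 (n = 28) and 1 to 106 (n = 106). The labels name no such runs, and the meaning of the drop is not given. By limma, 14.4% of all genes had unequal levels in these runs, where adjusted p below 0.05 was the threshold used throughout. Tumor 73 stood apart from the others, with a luminal epithelium score of -4.84, and arrays 109 to 120 resembled arrays 97 to 108. Results are therefore also given within runs and, where it matters, without tumor 73 or tumors 109 to 120. Tumors 104 and 116, for example, had Hbegf at 7.99 and 8.00, and Tgfa at 8.11 in each. Arrays 97 to 106 and 109 to 120 lie in different runs, so the runs may not be independent of each other. The number of independent tumors may thus be below 134, and the cause of the resemblance was not tested.

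Promoter sequences are shown for members whose levels moved together or with the hypoxia genes described further on. Epgn and Btc lie close to each other on mouse chromosome 5, and Erbb4 moved with Btc. Epgn was above the detection floor in only 4 tumors, which limits what its relations show. The sequences are the 250 bases before the start of each gene on its own strand, from RefSeq with build GRCm38.p6: chr5:91027267-91027516 on the + strand, chr5:91402995-91403244 on the - strand and chr1:69108060-69108309 on the - strand. They run 5′ to 3′, and capitals would mark any match to the motifs named below.
Epgn: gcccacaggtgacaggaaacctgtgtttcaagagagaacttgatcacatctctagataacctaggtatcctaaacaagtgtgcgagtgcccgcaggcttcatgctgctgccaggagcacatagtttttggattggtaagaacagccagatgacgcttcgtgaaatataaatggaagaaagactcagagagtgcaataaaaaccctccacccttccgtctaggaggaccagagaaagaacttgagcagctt
Btc: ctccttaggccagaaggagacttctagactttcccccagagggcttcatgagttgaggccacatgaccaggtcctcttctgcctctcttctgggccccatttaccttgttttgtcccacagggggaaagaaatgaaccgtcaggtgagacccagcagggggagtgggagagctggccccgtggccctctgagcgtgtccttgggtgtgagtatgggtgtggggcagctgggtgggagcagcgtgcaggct
Erbb4: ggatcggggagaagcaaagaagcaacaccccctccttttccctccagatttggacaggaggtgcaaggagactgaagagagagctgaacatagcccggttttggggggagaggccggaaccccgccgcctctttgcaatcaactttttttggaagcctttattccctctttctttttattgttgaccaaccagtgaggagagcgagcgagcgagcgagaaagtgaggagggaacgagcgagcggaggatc
These windows, extended by 50 bases past the start to 300 bases, were searched on both strands for the hypoxia response core ACGTG, the AP-1 site TGANTCA and the GC box GGGCGG, which do not overlap in their letters. None of these letters occurred in the windows of Epgn, Btc or Erbb4. Among the other members searched, Egfr had 1 GC box and Tgfa had 2, and neither had a hypoxia core or an AP-1 site. The promoters of Hbegf, Erbb3, Ereg and Nrg1 were not searched here. Of 32851 promoters of the same length, 19.6% held the hypoxia core, 7.81% the AP-1 site and 35.7% the GC box.

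Among the receptors, Erbb4 varied most across the tumors and Erbb3 least. Egfr, the receptor of EGF itself, had a mean log2 level of 9.26 ± 0.38 (SD, n = 134), with a lowest value of 8.14 in tumor 24, a median of 9.27 and a highest value of 10.50 in tumor 37. Erbb3, whose kinase is weak and which signals through its partners, had a mean of 9.85 ± 0.28, a lowest value of 8.44 in tumor 73, a median of 9.88 and a highest value of 10.41 in tumor 96. Erbb4, the receptor known for its part in alveolar cells, had a mean of 6.85 ± 0.50, a lowest value of 5.45 in tumor 13, a median of 6.93 and a highest value of 7.92 in tumor 93. Egfr and Erbb3 were above the detection floor in all 134 tumors, and Erbb4 in 131. The signal at the 90th percentile of tumors was 1.90 times that at the 10th percentile for Egfr, 1.49 times for Erbb3 and 2.42 times for Erbb4. The SD of Erbb4 was larger than that of 96.3% of all genes, that of Egfr larger than 91.3% and that of Erbb3 larger than 80.5%. Much of the range of Erbb3 was a tail of low tumors, with tumor 4 at 8.87 next above tumor 73.

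Of the ligands, 4 had a mean above the floor (Hbegf, Tgfa, Btc and Nrg1) and 2 below it (Epgn and Ereg). Hbegf, heparin-binding EGF-like growth factor, had a mean log2 level of 7.41 ± 0.39 (SD, n = 134), with a lowest value of 6.86, a median of 7.32 and a highest value of 8.74. Its distribution had a tail of high tumors, led by tumors 48 (8.74), 33 (8.65) and 45 (8.60). Tgfa, transforming growth factor alpha, had a mean of 8.17 ± 0.25, from 7.39 to 8.87 with a median of 8.20. Btc, betacellulin, had a mean of 6.52 ± 0.18, from 6.01 to 6.97 with a median of 6.51, so its SD was larger than that of only 47.1% of all genes. All 134 tumors were above the floor for each of these 3 ligands. Nrg1, neuregulin 1, had a mean of 6.04 ± 0.29, from 5.60 to 7.05 with a median of 5.97, and 125 tumors were above the floor. The signal at the 90th percentile of tumors was 1.90 times that at the 10th percentile for Hbegf, 1.61 times for Nrg1, 1.51 times for Tgfa and 1.36 times for Btc.

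Epgn, which encodes epigen, had a mean of 5.01 ± 0.25 (SD, n = 134), a median of 4.96 and a highest value of 6.26. It was above the floor in 4 tumors, namely tumors 33 (6.26), 4 (6.11), 103 (6.02) and 48 (5.79), while the remaining tumors reached down to 4.54. Ereg, which encodes epiregulin, had a mean of 5.01 ± 0.12, from 4.75 to 5.50, and was above the floor in 0 of 134 tumors. For these 2 ligands the level cannot tell differences among tumors under the floor from background. The deviation of an array from the others, a measure of array quality, correlated with Erbb3 at r = -0.361 and with Epgn at r = 0.30, and its part in their results was not tested beyond the fits with it as a covariate described in the closing section.

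**Figure D1:**
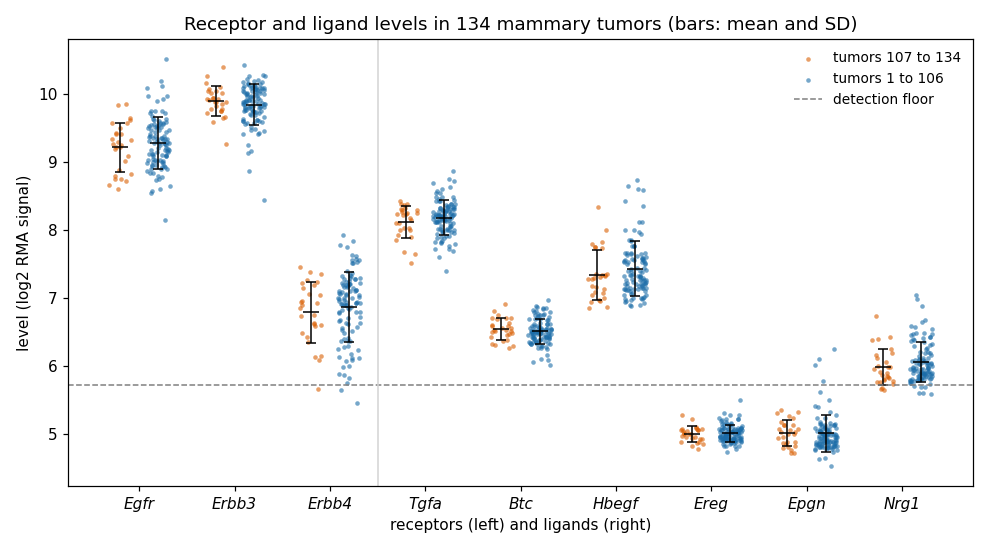
Log2 signal of the 3 receptors and 6 ligands (y axis) in each tumor, with tumors 107 to 134 in orange left of tumors 1 to 106 in blue, black bars for the mean and SD, and a dashed line at the detection floor of 5.72. Ereg lies below the floor in all tumors, Epgn is above it in 4, and Hbegf has a tail of high tumors.

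None of the 9 members differed between the runs by limma, and 0 reached an unadjusted p under 0.05. Hbegf averaged 7.33 ± 0.37 in tumors 107 to 134 (SD, n = 28) and 7.43 ± 0.40 in tumors 1 to 106 (n = 106). Erbb4 averaged 6.79 ± 0.45 in tumors 107 to 134, against 6.87 ± 0.51 in tumors 1 to 106. The runs overlapped for every member.

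The receptors moved together in part. Erbb4 was higher in tumors with more Erbb3 and, less clearly, in tumors with more Egfr, while Egfr and Erbb3 had no detectable relation. For Erbb3 and Erbb4, Pearson's r was 0.379 (95% interval 0.224 to 0.515, permutation p = 1e-05, the smallest that 100000 permutations give), Spearman's rho was 0.365 (permutation p = 3e-05) and the adjusted p over all genes was 0.000115 by limma. It was 0.166 within tumors 107 to 134, 0.423 within tumors 1 to 106 and 0.359 without the tumors with the most extreme Erbb3. For Egfr and Erbb4, r was 0.255 (permutation p = 0.00289) and rho 0.245 (permutation p = 0.00432), with an adjusted p of 0.0225. This relation was 0.246 within tumors 107 to 134 and 0.253 within tumors 1 to 106. It lost its call without the tumors with the most extreme Egfr (r = 0.218, adjusted p = 0.0778) and with scores of other cell types as covariates (r = 0.155, adjusted p = 0.289). Egfr and Erbb3 had r = -0.0136 (95% interval -0.183 to 0.156). In a bulk tumor, fewer cells of a type and less RNA per cell cannot be told apart, and this holds for all levels given here.

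Erbb2, the partner receptor that is no member of the group described here, was read beside them. Its level followed Egfr closely, with r = 0.615 (95% interval 0.498 to 0.711, permutation p = 1e-05), rho = 0.586 (permutation p = 1e-05) and an adjusted p of 2.86e-12 by limma, and r was 0.519 within tumors 107 to 134 and 0.651 within tumors 1 to 106. With Erbb4 its r was 0.254 (permutation p = 0.00289, rho = 0.267, adjusted p = 0.0251). With Erbb3, its usual signalling partner, r was 0.165 with a 95% interval of -0.0042 to 0.326 (permutation p = 0.055, adjusted p = 0.162).

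Of 18 pairs of a ligand and a receptor, 4 passed. Nrg1 was higher in tumors with more Egfr and Btc in tumors with more Erbb4, whereas Hbegf was lower in tumors with more Erbb4 and in those with more Erbb3. Btc and Hbegf are known ligands of Erbb4, whereas Nrg1 is not known as a ligand of Egfr, nor Hbegf of Erbb3. These 4 pairs were 22.2% of the 18. By receptor, 1 of 6 ligands (16.7%) passed with Egfr, against 15.1% of all genes, 1 of 6 (16.7%) with Erbb3, against 22.1% of all genes, and 2 of 6 (33.3%) with Erbb4, against 14.6% of all genes. With 6 ligands, none of these counts is large enough to set the ligands apart from other genes.

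Egfr and Nrg1 had r = 0.394 (95% interval 0.241 to 0.528, permutation p = 1e-05) and rho = 0.415 (permutation p = 1e-05), with an adjusted p of 7.09e-05 by limma. A tumor with 1 log2 unit more Egfr had 0.30 ± 0.06 (SE) log2 units more Nrg1. The correlation was 0.345 within tumors 107 to 134, 0.400 within tumors 1 to 106 and 0.430 without the tumors with the most extreme Egfr. Tumor 37, the highest for Egfr at 10.50, had Nrg1 at 5.94, close to the median, and tumor 21, the highest for Nrg1 at 7.05, had Egfr at 9.37. The pair passed with scores of other cell types as covariates (r = 0.419) and with the hypoxia score (r = 0.409).

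Erbb4 and Btc had r = 0.30 (95% interval 0.137 to 0.447, permutation p = 0.00048) and rho = 0.241 (permutation p = 0.00557), with an adjusted p of 0.00628 by limma. The correlation was 0.199 within tumors 107 to 134 and 0.328 within tumors 1 to 106, and it was 0.273 without the tumors with the most extreme Erbb4. Tumor 93, the highest for Erbb4 at 7.92, had Btc at 6.80, and tumor 13, the lowest for Erbb4 at 5.45, had Btc at 6.36. The difference in Btc between these tumors was therefore small beside that in Erbb4.

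Erbb4 and Hbegf had r = -0.299 (95% interval -0.446 to -0.136, permutation p = 0.00047) and rho = -0.248 (permutation p = 0.00401), with an adjusted p of 0.00608 by limma. Within tumors 107 to 134 the correlation was -0.0805, within tumors 1 to 106 it was -0.355, and without the tumors with the most extreme Erbb4 it was -0.266. Tumor 48, the highest for Hbegf at 8.74, had Erbb4 at 5.99, and tumor 45, with Hbegf at 8.60, had Erbb4 at 7.22. The call was lost with the hypoxia score as a covariate, where r was 0.0357 (adjusted p = 0.905), and with scores of other cell types, where r was -0.151 (adjusted p = 0.344).

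Erbb3 and Hbegf had r = -0.263 (95% interval -0.415 to -0.0982, permutation p = 0.00267) and rho = -0.236 (permutation p = 0.00615), with an adjusted p of 0.0128 by limma. The correlation was 0.0536 within tumors 107 to 134, -0.314 within tumors 1 to 106, -0.244 without the tumors with the most extreme Erbb3 and -0.30 without tumor 73. With the hypoxia score as a covariate it was -0.213 and no longer passed (adjusted p = 0.0544).

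**Figure D2:**
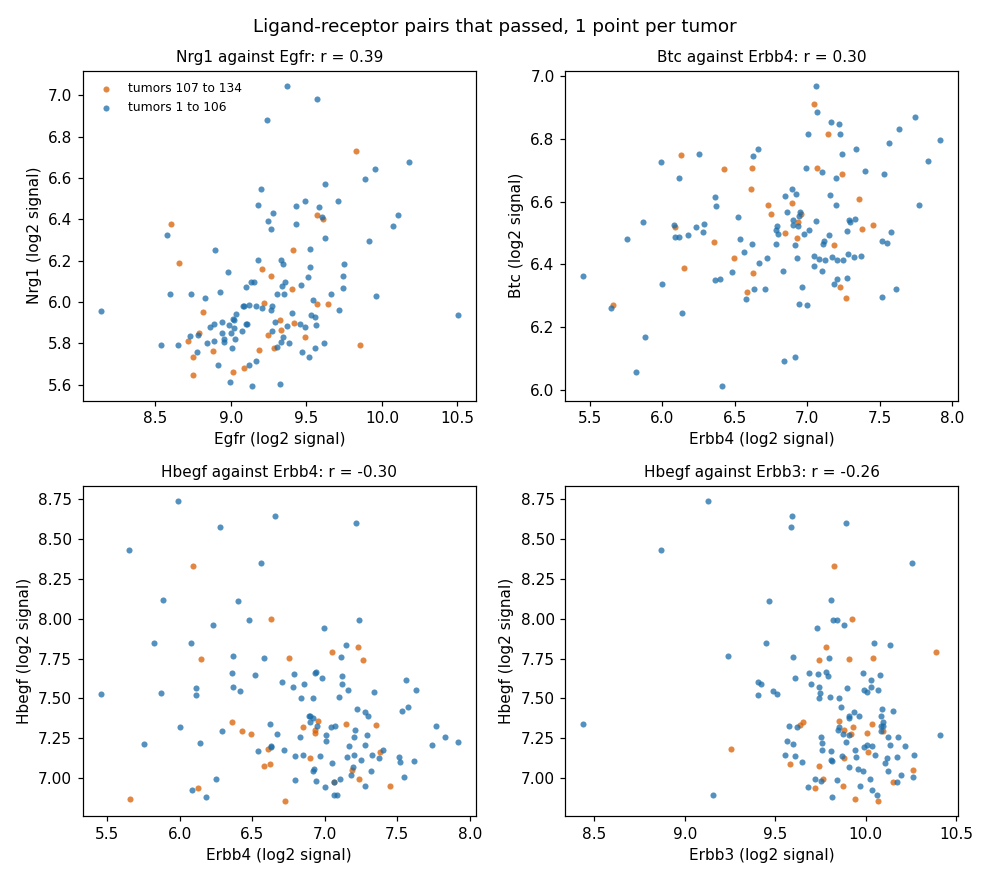
Ligand level (y axis, log2 signal) against receptor level (x axis, log2 signal) for the 4 ligand-receptor pairs that passed, 1 point per tumor, with tumors 107 to 134 in orange and tumors 1 to 106 in blue. Nrg1 with Egfr and Btc with Erbb4 have r of 0.39 and 0.30, and Hbegf has r of -0.30 with Erbb4 and -0.26 with Erbb3, with wide scatter in each.

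The other 14 ligand-receptor pairs did not pass, with r from -0.187 (Egfr and Tgfa) to 0.198 (Erbb3 and Btc). Their 95% intervals reached from -0.345 to 0.356 in all, so correlations of that size cannot be told from none in 134 tumors. Tgfa, a ligand that binds Egfr alone, had r = -0.187 with it (adjusted p = 0.135), and Hbegf had r = 0.0447 with Egfr (95% interval -0.126 to 0.213). Nrg1 had r = -0.113 with its receptor Erbb3 (95% interval -0.278 to 0.0573) and r = 0.174 with its receptor Erbb4 (adjusted p = 0.179), and Erbb4 and Nrg1 passed with the hypoxia score as a covariate (r = 0.254, adjusted p = 0.0427). Epgn and Erbb3 had r = -0.179 (adjusted p = 0.124), which became -0.280 without tumor 73 and then passed (adjusted p = 0.0101). Erbb3 and Btc passed by ranks (rho = 0.237, adjusted p = 0.0463), with array quality as a covariate (r = 0.249, adjusted p = 0.0269) and with scores of other cell types (r = 0.291, adjusted p = 0.0102).

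Of 15 pairs of ligands, 3 passed (20%), and Hbegf was in 2 of them. The share of all genes that passed was 30.2% with Ereg, 19.1% with Hbegf, 18.7% with Nrg1, 11.4% with Btc, 5.78% with Epgn and 1.83% with Tgfa, so the count of pairs does not set the ligands apart from other genes. Hbegf and Epgn had r = 0.374 (95% interval 0.218 to 0.511, permutation p = 0.00013) but rho = 0.201 (permutation p = 0.0208), with an adjusted p of 0.000214 by limma. This pair turned on few tumors. Epgn was above the floor in 4 tumors. Of these, tumor 48 had Hbegf at 8.74, tumor 33 at 8.65, tumor 4 at 8.43 and tumor 103 at 7.53, against a median of 7.32. The correlation was -0.0037 within tumors 107 to 134, 0.442 within tumors 1 to 106 and 0.224 without the tumors with the most extreme Hbegf, where the adjusted p was 0.0625. The call was also lost by ranks (adjusted p = 0.0867) and with the hypoxia score as a covariate, where r was 0.182 (adjusted p = 0.270).

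Hbegf and Nrg1 had r = 0.302 (95% interval 0.140 to 0.449, permutation p = 0.00051) and rho = 0.328 (permutation p = 0.00018), with an adjusted p of 0.00432 by limma. The correlation was 0.510 within tumors 107 to 134 and 0.249 within tumors 1 to 106, and it was 0.287 without the tumors with the most extreme Hbegf. In tumors 1 to 106 alone the pair did not pass (adjusted p = 0.0535). Btc and Epgn, the neighbours on chromosome 5, had r = 0.269 (95% interval 0.104 to 0.420, permutation p = 0.00172) and rho = 0.332 (permutation p = 0.00013), with an adjusted p of 0.0212. Their correlation was 0.519 within tumors 107 to 134, 0.232 within tumors 1 to 106, where the pair did not pass (adjusted p = 0.108), and 0.247 without the tumors with the most extreme Btc. Ereg, which lies between them, had r = -0.0954 with Btc and 0.0355 with Epgn. Epgn was above the floor in 4 tumors and Ereg in 0. These correlations therefore rest largely on Epgn and Ereg levels that cannot be told from background. With array quality as a covariate, Btc and Epgn had r = 0.254 (adjusted p = 0.0266 by limma). The other 12 ligand pairs had r from -0.0954 to 0.217, the highest being Hbegf and Tgfa (adjusted p = 0.0556).

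**Figure D3:**
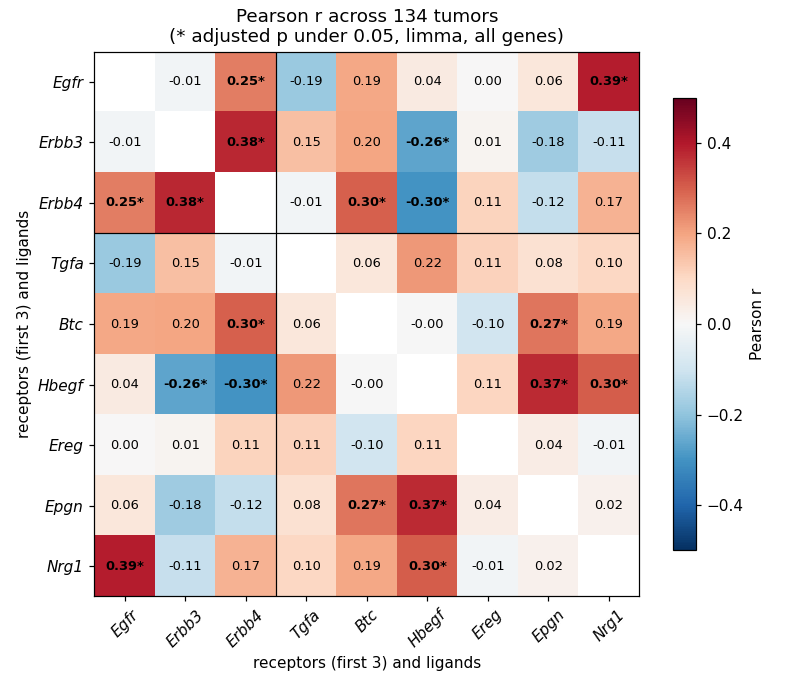
Pearson r across 134 tumors for all 36 pairs of the 9 members, receptors before the black lines and ligands after them, with red for positive and blue for negative r and an asterisk for an adjusted p under 0.05 by limma over all genes. The 9 pairs that passed have r from -0.30 to 0.39.

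Marker genes of other cell types and of cell states were read beside the members, as the mean z-score of each of 19 lists. The shares of all genes that passed with the score of a list are given with each result. Of 171 combinations of a member and a list, 29 passed, 13 of them with positive and 16 with negative r. Over all genes, the share that passed ranged from 0.211% with the salivary gland score to 44.6% with the proliferation score. The count of 29 therefore does not set the members apart from other genes. Erbb4 passed with 6 lists, Erbb3 and Hbegf with 5 each, Nrg1 with 4, Btc with 3, Egfr, Tgfa and Epgn with 2 each and Ereg with 0, also at an unadjusted p under 0.05.

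Hbegf followed the hypoxia genes more closely than any other member followed any list. The hypoxia list holds genes that low oxygen is known to induce, among them Vegfa, Adm, Car9 and glycolytic enzymes. Hbegf had r = 0.798 with its score (rho = 0.684, permutation p = 1e-05 for each) and an adjusted p of 9.07e-28 by limma, where 20.2% of all genes passed. The correlation was 0.841 within tumors 107 to 134, 0.796 within tumors 1 to 106 and 0.770 without the tumors with the most extreme scores. All 9 hypoxia genes passed with Hbegf in the positive direction, with a median r of 0.580 against -0.037 over all genes. The highest were Adm, a vessel-dilating peptide (r = 0.760), Vegfa, the endothelial growth factor (r = 0.693), and the stress gene Ndrg1 (r = 0.662). Tumor 100, with the highest score of 2.47, had Hbegf at 8.58, and tumor 17, with the lowest of -1.28, had it at 7.10.

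Erbb4 ran the other way, with r = -0.399 with the hypoxia score (rho = -0.351, permutation p = 1e-05 for each, adjusted p = 5.7e-05 by limma). It was -0.180 within tumors 107 to 134, -0.446 within tumors 1 to 106 and -0.392 without the tumors with the most extreme scores. Of the 9 hypoxia genes, 6 passed with Erbb4, all with negative r and with a median of -0.298 over the list against 0.014 over all genes. The glycolytic enzyme Pgk1 (r = -0.505) and Ndrg1 (r = -0.481) were the furthest. Tumor 48, with a score of 2.12, had Erbb4 at 5.99, and tumor 17 had it at 7.52.

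Epgn had r = 0.339 with the hypoxia score (permutation p = 0.00023, adjusted p = 0.0011 by limma) but rho = 0.153 (permutation p = 0.0788), and r was 0.0881 within tumors 107 to 134 and 0.384 within tumors 1 to 106. The 3 tumors highest for Epgn, 33, 4 and 103, had hypoxia scores of 1.20, 1.49 and 1.19, against a median score of -0.195. Of the hypoxia genes, 5 of 9 passed with Epgn. Egfr (r = -0.07), Btc (-0.07), Nrg1 (0.14), Tgfa (0.19), Ereg (-0.02) and Erbb3 (-0.17) did not pass with this score.

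**Figure D4:**
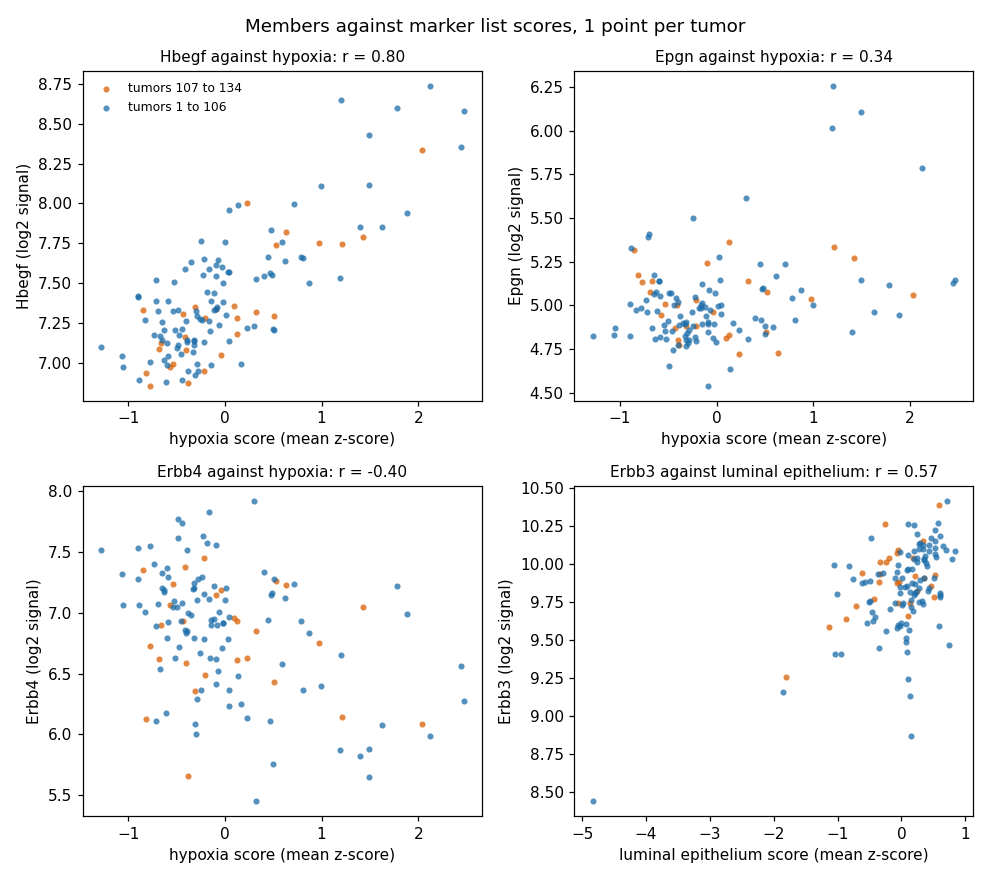
Levels of Hbegf, Epgn and Erbb4 against the hypoxia score and of Erbb3 against the luminal epithelium score (y axes, log2 signal; x axes, mean z-score of the list), 1 point per tumor, with tumors 107 to 134 in orange and tumors 1 to 106 in blue. Hbegf is higher at higher scores, Epgn is high in few tumors, Erbb4 runs down, and tumor 73 lies alone at the left of the luminal plot at -4.84.

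Erbb3 followed luminal epithelium, the cells whose keratins and adhesion genes make up that list. Its r with the score was 0.568 (rho = 0.422, permutation p = 1e-05 for each, adjusted p = 2.66e-11 by limma), where 38.6% of all genes passed. The correlation was 0.596 within tumors 107 to 134, 0.579 within tumors 1 to 106, 0.416 without tumor 73 and 0.366 without the tumors with the most extreme scores. Of the 10 luminal genes, 8 passed with Erbb3, all with positive r, and the median over the list was 0.429 against -0.019 over all genes. Cdh1, which encodes E-cadherin, had r = 0.675 and the keratin Krt18 had r = 0.545.

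Several other relations of Erbb3 rested on tumor 73. With the endothelium score (38.3% of all genes passed) r was -0.352, with rho at 0.0042, and it was -0.126 without tumor 73. With the adipocyte score (34.4% of all genes passed) r was -0.229 and became -0.0343 without tumor 73, and with the proliferation score (44.6% of all genes passed) r was 0.302 and became 0.0407. Their permutation p over all tumors were 0.00074, 0.0116 and 0.00301, and their adjusted p 0.000182, 0.0252 and 0.00136 by limma. With the luminal progenitor score (18.8% of all genes passed) r was 0.369 (rho = 0.290, adjusted p = 0.000295), and it was 0.245 without tumor 73.

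Milk genes ran against Egfr, Erbb4 and Btc. The r with the milk score, for which 14.7% of all genes passed, was -0.335 for Egfr, -0.303 for Erbb4 and -0.337 for Btc, with adjusted p of 0.0015, 0.00502 and 0.0015 by limma. Within tumors 107 to 134 these were -0.0511, -0.272 and -0.301, and within tumors 1 to 106 they were -0.407, -0.309 and -0.353. The milk protein gene Csn2 (beta-casein) had r = -0.358 with Egfr, -0.267 with Erbb4 and -0.341 with Btc. Erbb4 is known for its part in lactation, yet 4 of the 5 measured milk genes passed with it in the negative direction. With Erbb3, 1 of 5 passed, the whey protein gene Wap, in the positive direction (r = 0.261).

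Erbb4 also moved with the score of the hormone-sensing luminal list (r = 0.307, rho = 0.391, adjusted p = 0.00151), with which 31% of all genes passed. Of its 6 measured genes, only 2 passed with Erbb4, the luminal transcription factor gene Gata3 (r = 0.550) and Prom1 (0.330). The median r over the list was 0.078, against 0.014 over all genes. Hbegf had r = -0.276 with the hormone-sensing luminal score (adjusted p = 0.00534). Nrg1 had r = 0.366 with the luminal progenitor score (rho = 0.381, adjusted p = 0.000334), within which the receptor tyrosine kinase Kit had r = 0.401, and r was 0.534 within tumors 107 to 134 and 0.347 within tumors 1 to 106.

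The proliferation score ran against Egfr (r = -0.248, rho = -0.422), Nrg1 (r = -0.279, rho = -0.373) and Erbb4 (r = -0.232, rho = -0.352). Their adjusted p were 0.0102, 0.00346 and 0.0173 by limma. With this score 44.6% of all genes passed, so these calls do not set the members apart from other genes. Without tumor 73 the r were -0.414, -0.430 and -0.332, which is larger in size for each. For Egfr the correlation was -0.713 within tumors 107 to 134 and -0.166 within tumors 1 to 106. Rrm2, an enzyme of DNA synthesis, had r = -0.401 with Egfr.

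Immediate early genes, which growth factor signalling is known to induce within minutes, passed with 3 ligands. The r with their score, for which 34.5% of all genes passed, was 0.363 for Hbegf, 0.287 for Tgfa and 0.254 for Nrg1 (adjusted p = 0.0003, 0.00504 and 0.0135 by limma). Within tumors 107 to 134 these were 0.655, 0.420 and 0.340, and within tumors 1 to 106 they were 0.294, 0.258 and 0.240. Of the 9 list genes, 5 passed with Hbegf, 2 with Tgfa and 2 with Nrg1, all with positive r. The transcription factor gene Egr1 had r = 0.466 with Hbegf. With 34.5% of all genes passing, the 3 calls do not set the ligands apart from other genes.

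Stromal and other cell types passed with fewer members. The fibroblast score, for which 21% of all genes passed, ran against Hbegf (r = -0.357), Tgfa (-0.337) and Epgn (-0.241), with adjusted p of 0.000335, 0.00089 and 0.0281 by limma. The adipocyte score ran against Hbegf (r = -0.298, adjusted p = 0.00221), and the skeletal muscle score (22.3% of all genes passed) against Btc (r = -0.296, adjusted p = 0.00457). These relations had the same sign within each run. The Schwann cell score, for which 37.5% of all genes passed, moved with Nrg1 (r = 0.334), a growth factor of these glial cells. It also moved with Erbb4 (0.246) and with Btc (0.242, but -0.169 within tumors 107 to 134). The adjusted p were 0.000443, 0.0132 and 0.0162 by limma. Of the 5 measured Schwann cell genes, only 2 passed with Nrg1, S100b and Ngfr, and only 1, Cdh19, with Erbb4 and with Btc. These calls do not set the members apart from other genes. The neutrophil score, for which 1.05% of all genes passed, ran against Erbb4 (r = -0.314, adjusted p = 0.027), although r was 0.284 within tumors 107 to 134 and -0.390 within tumors 1 to 106. No member passed with the scores of macrophages (27.1% of all genes passed), myoepithelium (5.9%), skin keratinocytes (2.25%), T cells (2.57%), B cells (2.03%) or salivary gland (0.211%), and 5 of these 54 combinations had an unadjusted p under 0.05. The part that the other cells play in the levels was not tested beyond the fits with their scores as covariates.

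**Figure D5:**
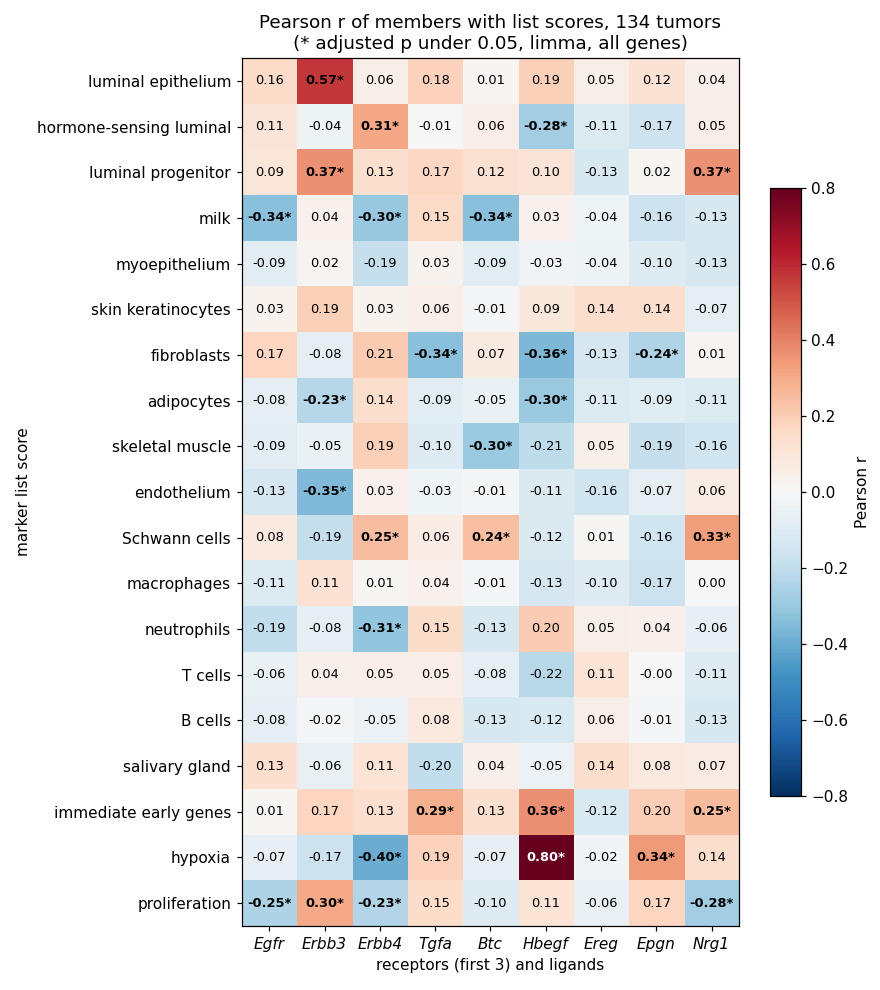
Pearson r across 134 tumors of each member (columns, receptors before ligands) with the score of each of the 19 marker lists (rows), with red for positive and blue for negative r and an asterisk for an adjusted p under 0.05 by limma over all genes. The darkest cell is Hbegf with hypoxia at 0.80, followed by Erbb3 with luminal epithelium at 0.57, and the column of Ereg has no asterisk.

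Other genes of the pathway were read from 53 names in 6 roles, of which 48 were measured. With Egfr, 11 of the 48 passed with positive r (22.9%, against 9.34% of all genes) and 2 with negative r (4.17%, against 5.74%), with a median r of 0.087 against -0.025 over all genes. Beside Erbb2, these were the iRhom genes Rhbdf1 (r = 0.399) and Rhbdf2 (0.280), which help the ligand-releasing protease, the neuregulin gene Nrg2 (0.276), the adaptors Eps8 (0.419) and Gab1 (0.381), the feedback inhibitors Lrig3 (0.404), Dusp6 (0.321) and Spry2 (0.305), and the induced genes Phlda1 (0.319) and Etv5 (0.291). Nras (r = -0.249) and the kinase gene Akt1 (-0.237) were the 2 with negative r. Egf, the ligand for which the receptor is named, had r = 0.018 with it.

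With Erbb3, 11 of 48 passed with positive r (22.9%, against 11.9% of all genes) and 3 with negative r (6.25%, against 10.2%), and the median r was 0.133 against -0.019 over all genes. The highest were Phlda1 (r = 0.456), the phosphatase gene Dusp5 (0.387) and Egf (0.378), followed by Rhbdf2 (0.326) and the protease gene Adam10 (0.316). The feedback inhibitor Errfi1, which blocks the kinases of the family, had r = 0.271. The 3 with negative r were Eps8 (-0.423), the neuregulin gene Nrg4 (-0.320), whose mean of 5.18 was below the floor, and the ubiquitin ligase gene Cblb (-0.306). Over all tumors, Eps8 thus ran opposite ways with Egfr and Erbb3. These values include tumor 73, the lowest for Erbb3. Of the genes named here with Erbb3, only Egf was also read without tumor 73 (r = 0.467). With Erbb4, 6 of 48 passed with positive r (12.5%, against 7.95% of all genes) and 3 with negative r (6.25%, against 6.64%), and the median r was 0.032 against 0.014 over all genes.

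The gene of the pathway nearest to Erbb4 was Egf, with r = 0.549 (95% interval 0.418 to 0.657, permutation p = 1e-05), rho = 0.513 (permutation p = 1e-05) and an adjusted p of 4.54e-09 by limma, although EGF is known as a ligand of Egfr. Within tumors 107 to 134 this r was 0.298, and within tumors 1 to 106 it was 0.601. Egf and Erbb3 had r = -0.0371 within tumors 107 to 134 and 0.436 within tumors 1 to 106. Others with positive r were Sos2 (0.371), Nrg2 (0.354), Lrig3 (0.338) and Phlda1 (0.288). Plaur, the urokinase receptor, had r = -0.547 with Erbb4, and Map2k1 (-0.274) and Cblb (-0.269) were also negative.

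Among the ligands, Hbegf and Nrg1 had the most pathway genes. With Hbegf, 17 of 48 passed with positive r (35.4%) and 4 with negative r (8.33%). Of all 19937 genes tested, 2171 passed with positive and 1631 with negative r, 19.1% in either direction. The hypoxia score, which Hbegf followed, was not a covariate for these pathway values. Feedback inhibitors made up 6 of the 17, among them Dusp6 (r = 0.426), Spry4 (0.350) and Errfi1 (0.342). MAPK-induced genes made up 5, among them Plaur (0.606), Ier3 (0.520) and Etv4 (0.380). Map2k1, the MAPK kinase gene, had r = 0.528, and Egf had r = -0.541, so that Egf and Plaur stood on opposite sides with Hbegf as they did with Erbb4. With Nrg1, 12 passed with positive and 3 with negative r. Over all genes, 2138 passed with positive and 1587 with negative r, 18.7% in either direction. The highest pathway genes with Nrg1 were Spry4 (0.539), Ier3 (0.492), Nrg2 (0.479) and Dusp6 (0.420).

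Tgfa had few relations of any kind, since only 1.83% of all genes passed with it, but 5 of 48 pathway genes passed with positive r, among them Ier3 (0.361), Spry4 (0.349) and Dusp4 (0.341), and 1 with negative r, Eps8 (-0.468). Btc had 5 positive, among them the inhibitors Spry1 (0.395), Lrig2 (0.333) and Lrig3 (0.325), and 1 negative, Plaur (-0.249), where 11.4% of all genes passed. Epgn had 2 positive and 1 negative, where 5.78% of all genes passed. Ereg had 1 positive and 5 negative although 30.2% of all genes passed with it, the highest share of the members, at a level below the floor in every tumor.

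The genes whose levels were most like a member's were read by Pearson r across the 134 tumors among genes with a mean above the floor. For Egfr they were Car8 (r = 0.757) and the transcription factor gene Sox9 (0.709), followed by Vamp1, Ern1 and Adgrl3, with Car8 at 0.715 within tumors 107 to 134 and 0.765 within tumors 1 to 106. For Erbb3 they were Camsap3, a microtubule protein gene (0.742), and Arfgef3 (0.716), followed by Eya2, Enpp3 and Fam234b. For Erbb4 they were Sidt1 (0.716) and the tachykinin receptor gene Tacr3 (0.644), followed by Homer2, Lurap1 and Zfp395.

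For Hbegf the nearest gene was Adm of the hypoxia list (0.760), followed by Isg20, the lactate transporter gene Slc16a3 (0.728), the placental growth factor gene Pgf (0.720) and Igfbp3 (0.717). For Nrg1 it was the Notch ligand gene Dll1 (0.629), followed by Otx1, Rabep2, Asic1 and Col11a1. For Tgfa they were Tox2 (0.529) and Lypd3 (0.467), followed by Nt5e, Kif21a and Mmp25, and for Btc Pof1b (0.539) and Krcc1 (0.521), followed by Zfp119a, 1600012H06Rik and Samd12. For Epgn, Endod1 had r = 0.667 and rho = 0.367, and Fam167a had r = 0.623 within all tumors but 0.088 within tumors 107 to 134. Fam107b, Dpysl5 and AU018091 came next. For Ereg the nearest were Ghsr (0.550), Gpr83 (0.525), Gprin2, the olfactory receptor gene Olfr1174 and Grem1. Within tumors 107 to 134 these r were lower, at 0.293, 0.192, 0.276, 0.330 and 0.101 in the same order. Ereg was below the floor in every tumor, so these relations rest on levels that cannot be told from background.

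Chromosomal neighbours are inherited together in a backcross, so the 10 nearest measured genes on each side of a member were read in RefSeq order. With Hbegf, 10 of 20 neighbours passed (50%, against 19.1% of all genes), 8 of them with positive r, such as Cxxc5 (r = 0.424) and Sting1 (0.392). With Erbb3, 8 of 20 passed (40%, against 22.1%), 6 with positive and 2 with negative r. The highest were the kinase gene Dgka (0.589) and the ubiquitin ligase gene Rnf41 (0.475), whose product is known to degrade Erbb3. Suox (-0.386) and Myl6b (-0.332) were negative. With Btc, 7 of 20 passed (35%, against 11.4%), 5 with positive and 2 with negative r. Among the positive ones were Rchy1 (0.351), Mthfd2l (0.324), Cdkl2 (0.311) and Epgn, and Ppef2 (-0.250) and Cxcl15 (-0.242) were negative. With Ereg, 7 of 20 passed (35%, against 30.2%), with 3 positive and 4 negative.

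With Erbb4, 4 of 20 passed (20%, against 14.6%), 3 with positive and 1 with negative r, and Map2 (0.405) was the highest. With Nrg1, 4 of 20 passed (20%, against 18.7%), 2 in each direction. With Egfr, 3 of 20 passed (15%, against 15.1%), 2 with positive and 1 with negative r. Epgn had 1 of 20 (5%, against 5.78%), which was Btc, and Tgfa had 0 of 20 (3 at an unadjusted p under 0.05). Epgn, Ereg and Btc share most of their neighbours. Genotypes were not used here, so linkage was not tested.

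Whether a ligand followed a receptor differently in the runs was tested with a product term in limma. None of the 18 ligand-receptor slopes differed after adjustment, and 2 had an unadjusted p under 0.05. The slope of Btc on Egfr was -0.11 within tumors 107 to 134 and 0.14 within tumors 1 to 106 (p = 0.0137, adjusted p = 0.593), and that of Ereg on Erbb4 was 0.13 within tumors 107 to 134 and 0.0061 within tumors 1 to 106 (p = 0.0318, adjusted p = 0.999). Over all genes, 0% of slopes on Egfr (1521 genes at an unadjusted p under 0.05) and 0% of slopes on Erbb4 (468 genes) differed between the runs. On Erbb3 13% of slopes differed, which is 2598 genes, and 1787 genes without tumor 73.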

How the data were processed

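RNA of 134 mammary tumors of the MOLF backcross was hybridised to Mouse Gene 1.0 ST arrays, 1 per animal. The authors deposited log2 values made with RMA, whose version is not given in the sources used here, and they were used as deposited. Of 35556 probe sets, 21789 had 1 gene symbol, 1621 several and 12146 none. Of those with 1 symbol, 21698 matched the RefSeq table of GRCm38.p6, and they gave 19938 genes, 999 with several probe sets, for which the one with the highest mean was taken. The mean of 13728 genes was above the detection floor.

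The level of a member, or the mean z-score of a marker list, was fitted as a continuous covariate with limma 3.58.1 (lmFit and eBayes, R 4.3.3) over all genes, with Benjamini-Hochberg adjustment over all genes of a fit. Genes of a list were left out of the fit with its score. A pair of ligands or of receptors took the member named earlier as the covariate. Pearson's r and Spearman's rho were tested 2-sided with 100000 permutations. The most extreme tumors left out were the 2 farthest from the median of the covariate. There were 36 pairs and 171 combinations of member and list. The members, lists and tests were chosen with earlier results of these data known, so patterns already seen in them are no independent support. Named genes were the members, the 5 genes most like each, list genes with the largest statistics and neighbours that passed. The fits were tested on simulated data. Other steps ran under numpy 2.4.6, pandas 2.3.3, scipy 1.17.1 and matplotlib 3.10.9 in Python 3.11.15.

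Alternatives were the mean of probe sets, ranks, quantile normalization once more, genes above the floor only, array quality, run, hypoxia or other cell types as covariates, each run alone, and leaving out tumor 73, tumors 109 to 120 or the 2 farthest tumors. The hypoxia covariate, and the farthest tumors for ligand-ligand and receptor-receptor pairs, were added after seeing the data. The number of arrays limits the precision.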

Additional observations from a re-analysis of the deposited data

How the results depend on the processing

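The 9 calls among the 36 pairs all held with the mean of probe sets, quantile normalization once more, array quality or run as a covariate, and without tumor 73 or tumors 109 to 120. In tumors 107 to 134 alone, 0 of 18 ligand-receptor, 0 of 15 ligand-ligand and 0 of 3 receptor-receptor pairs passed by limma (2, 4 and 0 at an unadjusted p under 0.05), 462 genes passed with Egfr (3007 in all tumors) and 0 with Erbb4 (2909 in all tumors; 956 in these at an unadjusted p under 0.05), and 6 combinations of member and list passed (29). These are 28 tumors, so fewer samples bear on these counts. The receptor-receptor calls were 1 in tumors 1 to 106 alone, 1 with scores of other cell types and 1 without the 2 farthest tumors, with the Egfr-Erbb4 call lost each time. Tumors 1 to 106 alone also lost Btc-Epgn (adjusted p = 0.108) and Hbegf-Nrg1 (0.0535) and gained Egfr-Btc (r = 0.294, adjusted p = 0.0232) and Btc-Nrg1 (r = 0.325, adjusted p = 0.0150). Scores of other cell types also lost Erbb4-Hbegf, and gained Erbb3-Btc. The hypoxia score lost Erbb3-Hbegf, Erbb4-Hbegf and Hbegf-Epgn and gained Erbb4-Nrg1 and Ereg-Hbegf (r = 0.209, adjusted p = 0.0498), ranks lost Hbegf-Epgn and gained Erbb3-Btc, and leaving out the 2 farthest tumors lost Hbegf-Epgn and gained Hbegf-Tgfa (r = 0.237, adjusted p = 0.0453). Ereg-Hbegf also passed after quantile normalization once more, Hbegf-Tgfa among genes above the floor only, Erbb3-Btc with array quality and Erbb3-Epgn without tumor 73. With Erbb3, 2574 genes passed by ranks, against 4400. With Erbb4, 1680 passed with scores of other cell types and 1472 with the hypoxia score. The cause of these shifts was not tested. Ereg and Epgn gave no value among genes above the floor only, where 25 pairs were left.

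The sign of r changed as follows, and of these pairs only Erbb3-Hbegf, Erbb4-Hbegf and Hbegf-Epgn had passed in all tumors. In tumors 107 to 134 alone, r was Egfr-Btc -0.256, Egfr-Hbegf -0.189, Egfr-Tgfa 0.0044, Egfr-Epgn -0.213, Egfr-Erbb3 0.0345, Erbb3-Hbegf 0.0536, Erbb4-Tgfa 0.199, Erbb4-Nrg1 -0.00519, Erbb4-Epgn 0.0956, Ereg-Nrg1 0.0859, Btc-Nrg1 -0.406, Hbegf-Epgn -0.00366 and Nrg1-Epgn -0.286. With ranks, r was Egfr-Ereg -0.0339, Egfr-Epgn -0.0723, Erbb3-Ereg -0.0395, Erbb4-Epgn 0.00739, Btc-Hbegf 0.00511 and Nrg1-Epgn -0.0109. In tumors 1 to 106 alone, r was Egfr-Ereg -0.0466 and Btc-Hbegf 0.0435. Without tumor 73, r was Egfr-Ereg -0.00936 and Erbb3-Ereg -0.0361. Without tumors 109 to 120, r was Egfr-Ereg -0.0107 and Btc-Hbegf 0.0332. Without the 2 farthest tumors, r was Egfr-Ereg -0.0484, Erbb3-Ereg -0.0629, Ereg-Nrg1 0.00996 and Btc-Hbegf 0.0312. After quantile normalization once more, r was Egfr-Erbb3 0.00169, Ereg-Nrg1 0.0194 and Btc-Hbegf 0.0378. With scores of other cell types, r was Erbb3-Ereg -0.0483, Erbb4-Tgfa 0.107, Btc-Hbegf 0.00702 and Btc-Nrg1 -0.0275. With the hypoxia score, r was Erbb4-Hbegf 0.0357, Erbb4-Tgfa 0.0672, Erbb4-Epgn 0.0177, Btc-Hbegf 0.0864 and Nrg1-Epgn -0.0294. With array quality, r was Ereg-Epgn -0.00517. With run, r was Btc-Hbegf 0.00556. The cause was not tested. No paired analysis was possible because there was 1 group of tumors.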
